A study of Mus musculus with 14 samples.

Results

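Imprinted growth genes are genes that most tissues transcribe from the maternal or the paternal chromosome only, and many of them set the size of the fetus and its organs. The 10 genes described here were chosen by name: the noncoding RNAs H19, Meg3, Rian and Mirg, the growth factor gene Igf2, its clearance receptor gene Igf2r, and Dlk1, Peg3, Plagl1 and Grb10. They are 10 of 54446 genes in the deposited count table, and all 10 passed the filter on low counts, which left 17987 genes for testing.

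Their RNA was measured in nuclei of mouse hearts enriched for PCM1, a centriolar satellite protein that sits at the nuclear envelope of cardiomyocytes. The mice were of ICR, an outbred strain, and hearts were collected on postnatal day 12. The 3 YAP5SA libraries came from mice given an adeno-associated virus of serotype AAV9 that expressed YAP5SA, a form of YAP, the Hippo pathway effector, that the pathway cannot switch off. The 2 YAP5SA_MEF2A libraries came from mice given that virus and a second AAV9 that expressed human MEF2A, a muscle transcription factor, and are called the both-virus libraries. The 4 MEF2A libraries came from mice given only the human MEF2A virus, and the 5 Control libraries came from mice given no virus, so virus and transgene enter every difference from Control together. Both transgenes were driven by the cardiac troponin T promoter, and each virus was injected into the peritoneum on postnatal day 7 at 1E11 genome copies. Counts are of mouse genes and give no separate value for a transgene. Whether libraries came from separate animals is not stated in the labels; p-values then reflect spread between libraries that may be partly technical.

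Total counts were between 16171068 and 24027622 per library. The labels name a pair of batches, of which batch 1 had 2 libraries from each group and batch 2 had 1 YAP5SA, 2 MEF2A and 3 Control libraries. Genes of the mitochondrial chromosome took 60.7% and 67.5% of counts in Controls 1 and 2, 32.2% in YAP5SA 3 and 3.80% to 23.2% in the other 11 libraries. Controls 1 and 2 were the only Controls of batch 1, and YAP5SA 3 was the only YAP5SA library of batch 2. Read from Xist and 4 Y-linked genes, all 3 YAP5SA libraries were male and the 2 both-virus libraries female, with 3 of 4 MEF2A and 2 of 5 Control libraries female. All 8 cardiomyocyte markers were detected in every library, and their summed level was lower with YAP5SA, at 25626 to 38308 CPM (read counts scaled by TMM library totals to a fixed library size) in YAP5SA and 35735 to 40126 CPM in both-virus libraries, against 78283 to 79716 CPM in MEF2A and 48320 to 81286 CPM in Control. In YAP5SA against Control 0 of the 8 were called as higher and 3 as lower. For 8 mural cell markers the sums were 612 to 1367 CPM in YAP5SA, 677 to 689 in both-virus, 509 to 680 in MEF2A and 445 to 641 in Control libraries. For 8 macrophage markers they were 77.0 to 809 CPM in YAP5SA, 83.1 to 84.2 in both-virus, 54.3 to 85.4 in MEF2A and 48.1 to 161 CPM in Control libraries, where up to 2 of the 8 were at 0. The summed level of 8 fibroblast markers was 1733 to 3083 CPM in YAP5SA, 1461 to 1538 in both-virus, 1358 to 2065 in MEF2A and 1264 to 2163 in Control libraries. The sums of 4 epicardial markers were 143 to 176 CPM in YAP5SA and 128 to 156 CPM in both-virus libraries, against 64.7 to 116 CPM in MEF2A and 78.4 to 116 CPM in Control libraries. All 5 libraries with YAP5SA were thus above the 9 without in the epicardial sum, as in Rian, Mirg and Plagl1 below. The same split held for 5.11% of all tested genes, and the opposite split for 2.92% and for the cardiomyocyte sum. Of the 4 epicardial markers, 2 were called as higher in YAP5SA against Control and 1 was lower at an unadjusted edgeR p under 0.05. In both-virus libraries 1 was called as higher, and 2 of the 4 had a log2 fold change above 0. The sums of 8 endothelial markers were 168 to 354 CPM in YAP5SA, 283 to 313 in both-virus, 391 to 454 in MEF2A and 307 to 697 CPM in Control libraries, with 4 of 8 called as lower in YAP5SA. The part of other cell types in the results below was not tested.

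Imprinted genes sit in clusters that a methylated control region governs. Paternally expressed Igf2 lies near the maternally expressed noncoding RNA H19, and paternally expressed Dlk1 near Meg3, also maternally expressed. Peg3 and Plagl1 are paternally expressed as well and lie at other sites. IGF2 drives growth through the IGF1 receptor, while the product of Igf2r takes IGF2 up for degradation and GRB10 is an adaptor that restrains insulin and IGF receptors. In mouse heart and skeletal muscle many of these genes are high before birth and decline after it, and MEF2A has been reported to act on the cluster that holds Meg3, Rian and Mirg in mouse skeletal muscle cells. The allele of origin was not measured, since the values are counts per gene in an outbred strain.

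Meg3, Rian and Mirg follow each other on chromosome 12 with Dlk1 upstream of them, all transcribed on the plus strand, at chr12:109541001-109571726, chr12:109603940-109661716, chr12:109729764-109749460 and chr12:109452823-109463336 on GRCm38. Meg3, also called Gtl2, is a long noncoding RNA, Rian is the host of small nucleolar RNAs of the C/D box class, and Mirg is the host of a miRNA cluster. Within these 3 genes the annotation places 2 miRNA genes in Meg3, 4 miRNA and 13 small nucleolar RNA genes in Rian and 15 miRNA genes in Mirg. Of the 23 miRNA genes within members, 20 had 0 counts in every library, so mature miRNAs were not measured by these polyA counts and a change of Mirg is that of the host transcript. Of the 15 miRNA genes of Mirg, 4 lie wholly in its exons, and 1 mature arm of each is shown because these are the sequences the counted exons carry. They come from RefSeq (GRCm38.p6), run 5′ to 3′, and capitals mark the seed, bases 2 to 8; the 7 arms of these 4 genes in the table have 7 distinct seeds.
mmu-miR-134-5p: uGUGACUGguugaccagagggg
mmu-miR-485-3p: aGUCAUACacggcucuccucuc
mmu-miR-377-3p: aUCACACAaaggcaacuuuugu
mmu-miR-410-3p: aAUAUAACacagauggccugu

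Peg3, at chr7:6703892-6730431 on the minus strand, and Plagl1, at chr10:13060504-13131694 on the plus strand, encode zinc finger proteins. YAP acts on DNA through TEAD factors, so windows around the starts of all members were searched for the TEAD motif GGAATG on either strand. A window held 300 bases, 250 before the start and 50 from it on, from RefSeq (GRCm38.p6); 9 of 10 members had one or more, 14 windows in all, and H19 had none in the table. The motif stood in 14.7% of 32851 windows of all genes, and among members in Rian, Peg3 and Igf2. In Rian its first base lay at -103 and in Peg3 at -84 from the start. The window of Mirg lay inside that gene as GENCODE draws it, held no match and is not shown. No member window held a MEF2 motif, which stood in 1.86% of all windows. A match is a run of letters and does not show a bound site. The 4 windows of the other members that rose in YAP5SA are printed, in lower case with the motif in capitals, each on the strand of its gene: Meg3 (first of 2 windows, chr12:109540746-109541045), Rian (chr12:109603695-109603994), Peg3 (chr7:6730370-6730669, minus strand) and Plagl1 (chr10:13090582-13090881).
Meg3: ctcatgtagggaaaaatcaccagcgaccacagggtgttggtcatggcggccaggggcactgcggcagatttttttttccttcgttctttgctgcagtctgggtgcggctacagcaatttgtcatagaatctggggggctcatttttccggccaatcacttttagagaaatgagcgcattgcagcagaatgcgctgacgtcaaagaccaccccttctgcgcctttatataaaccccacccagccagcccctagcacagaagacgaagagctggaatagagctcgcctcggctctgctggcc
Rian: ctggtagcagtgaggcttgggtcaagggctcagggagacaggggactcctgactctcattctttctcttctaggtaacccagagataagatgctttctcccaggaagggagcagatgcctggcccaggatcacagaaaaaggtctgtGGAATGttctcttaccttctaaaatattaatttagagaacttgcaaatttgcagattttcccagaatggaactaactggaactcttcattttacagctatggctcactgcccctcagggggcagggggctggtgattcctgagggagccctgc
Peg3: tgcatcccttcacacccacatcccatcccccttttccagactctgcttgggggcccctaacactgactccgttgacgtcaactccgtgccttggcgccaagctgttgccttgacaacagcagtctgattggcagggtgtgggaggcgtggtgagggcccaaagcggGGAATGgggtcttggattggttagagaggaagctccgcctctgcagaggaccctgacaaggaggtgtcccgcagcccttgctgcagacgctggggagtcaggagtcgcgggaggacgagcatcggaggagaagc
Plagl1: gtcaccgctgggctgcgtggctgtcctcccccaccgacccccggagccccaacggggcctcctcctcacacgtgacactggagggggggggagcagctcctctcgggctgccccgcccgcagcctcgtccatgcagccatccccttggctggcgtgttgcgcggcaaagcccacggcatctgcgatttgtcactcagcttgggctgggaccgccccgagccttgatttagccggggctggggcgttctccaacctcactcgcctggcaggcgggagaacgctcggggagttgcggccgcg
The Plagl1 window held 26 CpG dinucleotides and was 70.7% G and C, the Peg3 window 13 and 61.3%, the Meg3 window 13 and 53.7%, and the Rian window 0 and 49.3%. The start used for the printed Plagl1 window also lies inside the gene as GENCODE draws it.

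The first comparison, of YAP5SA with Control, concerns the response to active YAP, which the title of the series links to renewal and metabolism. In YAP5SA libraries 5 of the 10 genes rose and 0 fell: the noncoding RNAs Meg3, Rian and Mirg, and the zinc finger genes Peg3 and Plagl1, by 0.97 to 2.03 on the log2 scale. Across all tested genes 9.86% were called, 5.69% as higher and 4.17% as lower. The test was edgeR's quasi-likelihood test over all 14 libraries with group and batch as terms, and calls needed an adjusted p (Benjamini-Hochberg, two-sided) under 0.05. The median log2 fold change of the 10 members was 0.80, beside 0.06 for all tested genes. H19, Igf2, Igf2r, Dlk1 and Grb10 did not pass. In these bulk libraries fewer cells of a type and less RNA per cell cannot be told apart, so each change is one of the RNA pool of the enriched nuclei.

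**Figure D1:**
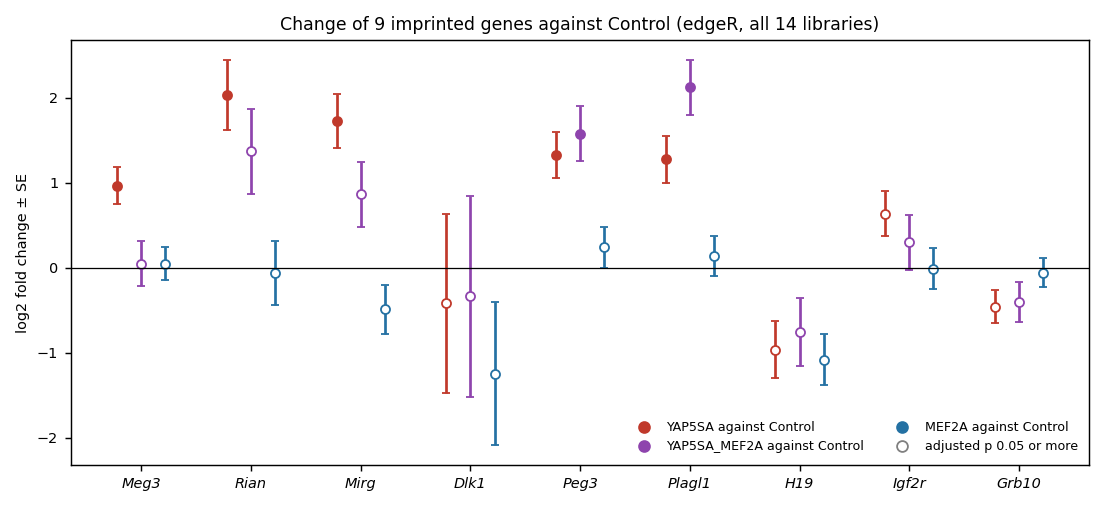
Log2 fold change against Control (y axis, edgeR, points with SE) of 9 members in YAP5SA, YAP5SA_MEF2A and MEF2A libraries, with filled points where the adjusted p was under 0.05 and Igf2 left out for its low counts. Meg3, Rian, Mirg, Peg3 and Plagl1 are filled in YAP5SA, Peg3 and Plagl1 in YAP5SA_MEF2A and none in MEF2A.

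Meg3 had 998, 609 and 507 CPM in YAP5SA libraries 1 to 3, 409 and 331 CPM in both-virus libraries, 311, 368, 464 and 368 CPM in MEF2A libraries and 354, 311, 384, 408 and 373 CPM in Control libraries. Every YAP5SA library was above every other library, while the both-virus and MEF2A libraries overlapped the Controls, with MEF2A 3 above all 5 of them. In YAP5SA against Control Meg3 rose by 0.97 ± 0.22 (log2 fold change ± SE, edgeR adjusted p = 0.0100). Without YAP5SA 1, the highest library, the difference was 0.64 and was no longer called (adjusted p = 0.0747).

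Rian had 466, 236 and 302 CPM in YAP5SA, 256 and 168 CPM in both-virus, 72.4, 110, 90.8 and 40.7 CPM in MEF2A libraries and 68.5, 61.0, 39.4, 108 and 131 CPM in Control libraries. All 5 libraries that carried YAP5SA were above all 9 that did not. The rise in YAP5SA against Control was 2.03 ± 0.41 (edgeR adjusted p = 0.00878), and without YAP5SA 3 it was 2.14 with an adjusted p of 0.0687.

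Mirg was lower in level, with 80.5, 39.2 and 37.2 CPM in YAP5SA, 34.6 and 23.4 CPM in both-virus, 11.2, 13.5, 9.69 and 10.2 CPM in MEF2A and 11.6, 12.8, 11.2, 21.2 and 20.4 CPM in Control libraries. Again all 5 libraries with YAP5SA were above the 9 without, the lowest of them by a narrow margin. Mirg rose by 1.73 ± 0.31 in YAP5SA against Control (edgeR adjusted p = 0.00221), and this call held when any 1 library was left out.

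**Figure D2:**
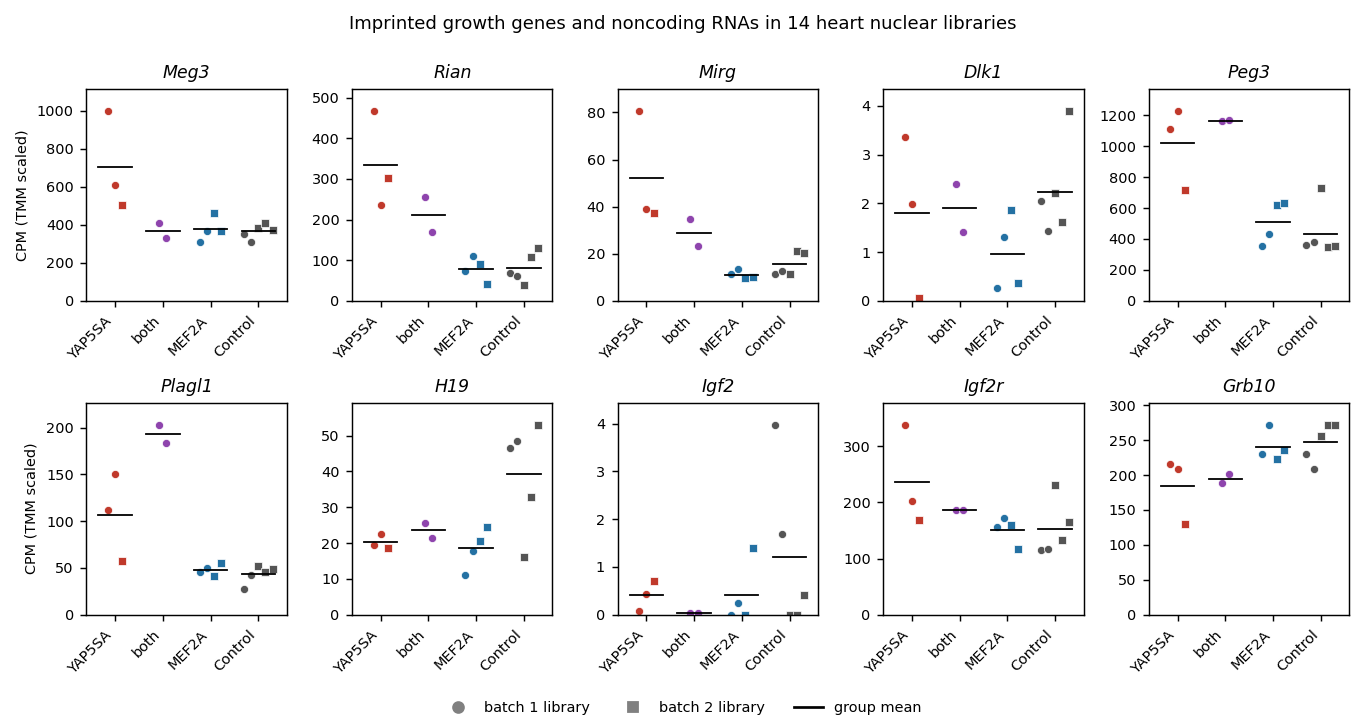
CPM (y axis, TMM scaled, from 0) of each of the 10 members in every library, by group (x axis), with circles for batch 1, squares for batch 2 and a bar for the group mean; "both" is YAP5SA_MEF2A. Rian, Mirg and Plagl1 have all 5 YAP5SA-bearing libraries above the other 9, and Peg3 has 1 Control library, at 729 CPM, among the YAP5SA libraries.

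In YAP5SA against Control the estimates for the 3 noncoding RNAs differed in size, but their 95% intervals overlapped. The intervals were 0.50 to 1.43 for Meg3, 1.14 to 2.93 for Rian and 1.07 to 2.39 for Mirg. The log2 ratio of Rian to Meg3 read counts was -1.10, -1.37 and -0.75 in YAP5SA libraries 1 to 3 and -0.67 and -0.97 in both-virus libraries, against -2.10, -1.75, -2.35 and -3.18 in MEF2A libraries and -2.37, -2.35, -3.28, -1.92 and -1.51 in Control libraries. The 5 libraries with YAP5SA lay above the 9 without, by a small gap. Mirg to Meg3 gave the same picture, at -3.96 to -3.56 in the 5 libraries with YAP5SA against -5.58 to -4.19 in the 9 others, while Mirg to Rian had group means of -2.72 ± 0.27 (SD, n = 3) in YAP5SA, -2.87 ± 0.03 (n = 2) in both-virus, -2.73 ± 0.54 (n = 4) in MEF2A and -2.33 ± 0.34 (n = 5) in Control libraries, with overlapping ranges. A ratio within a library does not depend on its scaling. These ratios were chosen after the values were seen and are given without a test. Dlk1, the protein-coding neighbour, encodes a transmembrane protein of the Notch ligand family and was near the limit of detection, with 3.36, 1.98 and 0.0501 CPM in YAP5SA, 2.40 and 1.42 CPM in both-virus, 0.272, 1.31, 1.87 and 0.365 CPM in MEF2A and 2.04, 1.43, 2.20, 1.61 and 3.89 CPM in Control libraries; its counts were 1 to 101 per library and no difference was detectable at this depth (-0.42 ± 1.05 in YAP5SA against Control, edgeR adjusted p = 0.855).

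**Figure D3:**
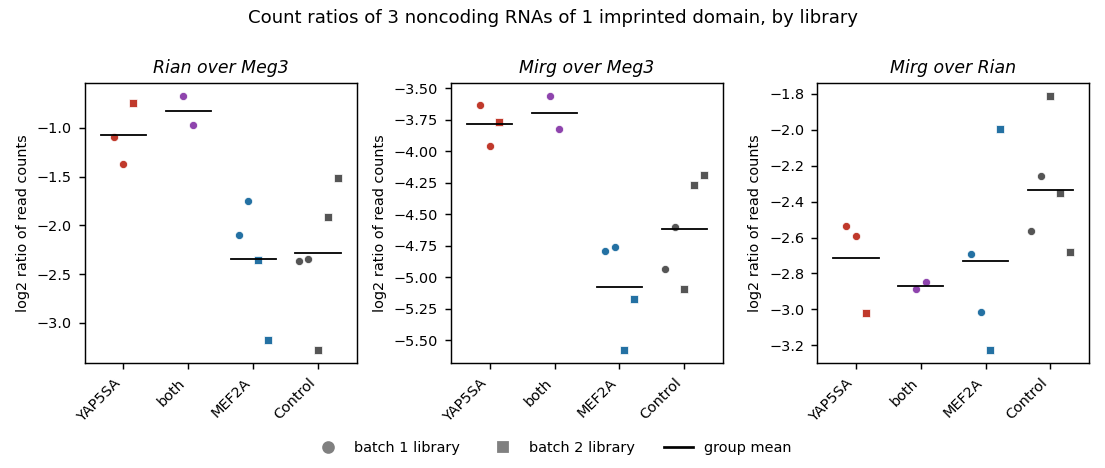
Log2 ratio of read counts (y axis) of Rian to Meg3, Mirg to Meg3 and Mirg to Rian in every library, by group (x axis), with circles for batch 1, squares for batch 2 and a bar for the group mean; the axes do not start at 0. In the first 2 panels the 5 libraries with YAP5SA lie above the 9 without, and in the third the groups overlap.

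Peg3 and Plagl1 were the only members called in both groups that carried YAP5SA. Peg3 had 1109.9, 1225 and 716 CPM in YAP5SA libraries, 1159.9 and 1169 CPM in both-virus, 356, 433, 622 and 630.4 CPM in MEF2A and 359, 381, 729, 350.1 and 353 CPM in Control libraries. Control 3 was above YAP5SA 3, and the other Controls were far below every library with YAP5SA. Peg3 rose by 1.33 ± 0.27 in YAP5SA (edgeR adjusted p = 0.00526) and by 1.58 ± 0.32 in both-virus libraries (adjusted p = 0.0152). The both-virus call ended without Control 1 or 2, or without either both-virus library (adjusted p = 0.0533 to 0.0997, with differences of 1.51 to 1.60).

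Plagl1, also called Zac1, is a transcription factor known to act on other imprinted genes. It had 112, 151 and 57.0 CPM in YAP5SA, 203 and 183 CPM in both-virus, 45.6, 49.5, 41.5 and 55.4 CPM in MEF2A and 27.4, 42.5, 51.9, 45.6 and 48.6 CPM in Control libraries. The both-virus libraries were highest, and YAP5SA 3, the batch 2 library, was only just above the highest library without YAP5SA. The difference from Control was 1.28 ± 0.28 in YAP5SA (edgeR adjusted p = 0.00718) and 2.13 ± 0.32 in both-virus libraries (adjusted p = 0.00136).

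Within batches the rises were larger in batch 1. In batch 1 alone, with 2 libraries a group, YAP5SA against Control gave 1.23 for Meg3, 2.39 for Rian, 2.25 for Mirg, 1.61 for Peg3 and 1.87 for Plagl1, all called by edgeR (adjusted p = 0.00239 to 0.0216). The Controls of that batch were Controls 1 and 2, so every batch 1 value against Control rests on these libraries rich in mitochondrial transcripts. In batch 2 alone, with 1 YAP5SA library against 3 Controls, the values were 0.38, 1.70, 1.08, 0.59 and 0.23 in the same order of genes and none was called (adjusted p = 0.0788 to 0.637). Without Controls 1 and 2, Mirg alone of the 5 was called (1.23, adjusted p = 0.0352), Meg3, Rian and Peg3 stood at 0.80, 1.60 and 1.21 (adjusted p = 0.0635 to 0.0874) and Plagl1 at 0.78 (adjusted p = 0.1002). Without Controls 1 and 2 and YAP5SA 3, Plagl1 alone was called (1.47, adjusted p = 0.0401), with differences of 1.35 to 1.96 for the other 4. In that run YAP5SA and Control libraries had no batch in common. All 5 differences were above 0 in every alternative run. With library totals in place of TMM factors the median of all genes moved to 0.69, and the 5 values, 1.69 for Meg3 to 2.62 for Rian, stayed above it. With a term for sex beside batch, all 5 calls held.

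The members tied to insulin-like growth factor signalling were not called. H19, the noncoding RNA that hosts miR-675 and lies at chr7:142575529-142578143, had 19.4, 22.6 and 18.7 CPM in YAP5SA, 25.6 and 21.5 CPM in both-virus, 11.2, 17.9, 20.7 and 24.5 CPM in MEF2A and 46.5, 48.5, 16.2, 33.0 and 52.9 CPM in Control libraries. Control 3 lay among the virus libraries and the other 4 Controls above all of them. The differences from Control were -0.96 ± 0.33 in YAP5SA (edgeR adjusted p = 0.0769), -0.75 ± 0.40 in both-virus (adjusted p = 0.441) and -1.08 ± 0.30 in MEF2A libraries (adjusted p = 0.576). Without Control 3 they were called in YAP5SA (-1.14, adjusted p = 0.0112) and MEF2A (-1.27, adjusted p = 0.0217). Without Controls 1 and 2 they were -0.52, -0.20 and -0.75 in YAP5SA, both-virus and MEF2A libraries and none was called. DESeq2 called H19 in YAP5SA (-0.97, adjusted p = 0.0364), and with library totals only the values were -0.24 in YAP5SA and 0.17 in both-virus libraries. In batch 1 alone H19 was called in YAP5SA (-1.22), both-virus (-1.05) and MEF2A libraries (-1.74), and in batch 2 alone it stood at -0.87 in YAP5SA and -0.58 in MEF2A libraries without a call.

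Igf2, at chr7:142650766-142666816, had 0 to 35 counts per library: 2, 10 and 14 in YAP5SA, 1 and 1 in both-virus, 0, 4, 0 and 23 in MEF2A and 35, 13, 0, 0 and 11 in Control libraries. The 2 Controls rich in mitochondrial transcripts held most of the Control counts, and no difference was detectable at this depth. The annotation draws Gm49394 over 3596 of the 5723 exon bases of Igf2 on the same strand. Gm49394 was at 0 counts in every library, and reads that 2 genes share are not assigned by some counting programs, so the level of Igf2 is uncertain.

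Igf2r, at chr17:12682406-12769664, encodes the receptor that clears IGF2. It had 337, 203 and 169 CPM in YAP5SA, 187 and 186 CPM in both-virus, 156, 172, 160.3 and 118 CPM in MEF2A and 116, 117, 231, 134 and 165 CPM in Control libraries. The groups overlapped through Control 3, and the difference in YAP5SA was 0.64 ± 0.27 (edgeR adjusted p = 0.140). It was called without Control 3 (0.79, adjusted p = 0.0381) and in batch 1 alone (1.17, adjusted p = 0.0196), and was -0.07 in batch 2 alone and 0.12 without Controls 1 and 2. Airn, the antisense noncoding RNA that overlaps Igf2r, shares 0 exon bases with it and did not pass (0.25 ± 0.29, adjusted p = 0.652).

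Grb10, at chr11:11930508-12038683, had 215, 209 and 130.1 CPM in YAP5SA, 188 and 202 CPM in both-virus, 231, 271, 222 and 236 CPM in MEF2A and 229.8, 208, 256, 271 and 271 CPM in Control libraries. The 5 libraries with YAP5SA were among the lowest, 2 of them just above Control 2, the lowest Control. The differences were -0.45 ± 0.19 in YAP5SA (edgeR adjusted p = 0.151) and -0.40 ± 0.23 in both-virus libraries (adjusted p = 0.494). In YAP5SA it was called in batch 2 alone (-1.03, adjusted p = 0.0139) and without Controls 1 and 2 (-0.79, adjusted p = 0.0251), and with library totals only it was 0.21 in YAP5SA and 0.40 in both-virus libraries.

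In both-virus libraries against Control, which share the Controls with the comparison above, Peg3 and Plagl1 rose and 0 members fell, beside 1.36% of all tested genes called, 1.16% as higher and 0.195% as lower. Rian stood at 1.37 ± 0.50 (edgeR adjusted p = 0.226), Mirg at 0.86 ± 0.38 (adjusted p = 0.317) and Meg3 at 0.05 ± 0.27 (adjusted p = 0.966). The median log2 fold change of the 10 members was 0.18, beside 0.01 for all genes. In levels, Rian, Mirg, Peg3 and Plagl1 were higher in each both-virus library than in any Control, and Grb10 lower, while 23.3% of all genes did not overlap, 14.9% higher and 8.43% lower. With the 3 YAP5SA libraries against Control the levels of Meg3, Rian, Mirg and Plagl1 did not overlap (13.6% of all genes, 8.51% higher and 5.13% lower), and over all 5 libraries with YAP5SA against the 9 without those of Rian, Mirg and Plagl1 did not (8.04% of all genes, 5.11% higher and 2.92% lower). Of MEF2A and Control libraries 0 members had levels that did not overlap, beside 2.82% of all genes. All both-virus libraries were of batch 1, so without Controls 1 and 2 they had no Control of their own batch. In batch 1 alone Rian (1.68), Peg3 (1.62) and Plagl1 (2.43) were called as higher and H19 (-1.05) as lower (edgeR adjusted p = 0.00148 to 0.0476), whereas without Controls 1 and 2 no member was (Plagl1 1.55, adjusted p = 0.0565).

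MEF2A against Control asks what the muscle factor changes by itself. The test called 0 of the 10 members, beside 0.0167% of all tested genes, and 1 member (H19) had an unadjusted p under 0.05; DESeq2 and limma-voom called 0 members too. The median log2 fold change of the 10 was -0.06, beside 0.02 for all genes. Meg3 differed by 0.05 ± 0.20 with a 95% interval of -0.36 to 0.46, Rian by -0.06 ± 0.38 (interval -0.88 to 0.76) and Mirg by -0.49 ± 0.29 (interval -1.09 to 0.11). These intervals give the differences that the data allow and are not limits of detection. On simulated counts with 200 changed genes and no batch effect, changes of 1 on the log2 scale were recovered in only 28% for this comparison. The simulation gave 108 calls against 3 in the data, so its adjusted threshold was easier to pass. The 28% is therefore not the recovery rate of the real comparison. Peg3 differed by 0.24 ± 0.24 and Plagl1 by 0.14 ± 0.24 (edgeR adjusted p = 0.869 and 0.927).

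Against MEF2A libraries, YAP5SA libraries were higher in the same 5 genes, with Meg3 at 0.92 ± 0.23, Rian at 2.09 ± 0.42, Mirg at 2.22 ± 0.32, Peg3 at 1.09 ± 0.28 and Plagl1 at 1.14 ± 0.28 (edgeR adjusted p = 0.000291 to 0.0166), and 0 members were lower. Of all tested genes 14.9% were called, 7.77% as higher and 7.12% as lower. These values use no Control library except through the shared estimates of batch and spread, and without Controls 1 and 2 all 5 calls held. In Meg3 the call ended without MEF2A 1 (0.78) or YAP5SA 1 (0.58), and in Peg3 without MEF2A 1 or 2 or YAP5SA 1 (0.90 to 1.01; adjusted p = 0.0618 to 0.0894 over these). In batch 2 alone Mirg was the 1 of the 5 called (1.88, adjusted p = 0.00631). With a term for sex, Peg3 stood at 0.73 and was no longer called (adjusted p = 0.142). Both-virus against MEF2A libraries gave calls for Peg3 (1.34 ± 0.33, adjusted p = 0.0399) and Plagl1 (1.99 ± 0.32, adjusted p = 0.00210), with 2.32% of all genes called, 1.61% as higher and 0.706% as lower. The Peg3 call ended without any 1 of the 4 MEF2A libraries, either both-virus library or Control 1 or 2 (adjusted p = 0.0560 to 0.255).

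Between both-virus and YAP5SA libraries 0 members were called, as was 0% of all tested genes, with 3 members at an unadjusted p under 0.05 and 0 members called by DESeq2 or limma-voom, which called 18 and 1 of all genes. Meg3 differed by -0.92 ± 0.28 (95% interval -1.50 to -0.34, unadjusted p = 0.00383, edgeR adjusted p = 1), Mirg by -0.86 ± 0.38 and Plagl1 by 0.85 ± 0.32. Rian differed by -0.66 ± 0.52 (interval -1.78 to 0.46) and Peg3 by 0.25 ± 0.33 (interval -0.44 to 0.94). The interaction, which is the both-virus minus YAP5SA difference less the MEF2A minus Control difference, called 0 members and 0% of all genes, with 2 members at an unadjusted p under 0.05: Meg3 (-0.97 ± 0.33) and H19 (1.29 ± 0.50). DESeq2 and limma-voom called 0 members there, and 22 and 0 of all genes. Sex differed fully between YAP5SA and both-virus libraries, so a term for it rests on the MEF2A and Control libraries. With that term the members called were again 0 in both tests. This decides nothing about sex, since 0% of all genes were called without the term.

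Compared per length, in CPM per kilobase of exon, Peg3 had the highest level in Control libraries, at 32.6 ± 12.4 (SD, n = 5), followed by Grb10 at 27.2 ± 3.02, Meg3 at 20.2 ± 2.01, Igf2r at 16.4 ± 5.17 and H19 at 16.02 ± 6.09. Plagl1 at 5.53 ± 1.21, Rian at 4.47 ± 2.03 and Mirg at 2.12 ± 0.677 were lower, and Dlk1 at 0.395 ± 0.172 and Igf2 at 0.213 ± 0.295 lowest. Neighbours in this order differed by less than the sum of their SDs, except for the steps between Grb10 and Meg3, between H19 and Plagl1 and between Mirg and Dlk1. In YAP5SA libraries Peg3 stood at 76.3 ± 20.02 CPM per kilobase, Meg3 at 38.9 ± 14.3, Rian at 18.4 ± 6.50 and Plagl1 at 13.7 ± 6.03 (n = 3), so that Rian was above H19, at 8.23 ± 0.854.

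By their pattern over the 14 libraries, measured as the root mean square difference of centred log2 CPM among 11210 genes, the gene most like Rian was Zfp57 (0.374, against a spread of Rian itself of 1.09), with Tead4 (0.378) and Sav1 (0.382) next. Zfp57 was also the gene most like Mirg (0.282), ahead of Ptbp1 and Myh9. Peg3 was most like Asap1 (0.282), Wdr45 and Sptan1, Plagl1 like Dlc1 (0.347), Asap1 and Prkci, and Meg3 like Npepl1 (0.258), Mindy3 and Pprc1. Among members, the smallest differences were 0.308 for Igf2r with Meg3, 0.385 for Rian with Mirg and 0.418 for Peg3 with Plagl1. Their own spreads were 0.420 for Igf2r, 0.449 for Meg3, 1.09 for Rian, 0.925 for Mirg, 0.722 for Peg3 and 0.894 for Plagl1. The difference is smaller for genes that vary little, so it does not rank these pairs, or Meg3 with Npepl1, by shape of pattern. All these values are descriptions over libraries that share groups and depth.

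Of 51 other imprinted genes, 45 were tested. In YAP5SA against Control 5 of the 45 rose and 1 fell, beside 5.69% of all tested genes called as higher and 4.17% as lower. The median log2 fold change of the 45 was 0.01, beside 0.06 for all genes, and 23 of the 45 were above 0. Among those called, Cobl and Zim1 had the largest differences, and both lie near a member. Zim1, a maternally expressed zinc finger gene that lies 7441 bases from Peg3, had 56.3, 27.4 and 34.4 CPM in YAP5SA, 45.5 and 44.7 CPM in both-virus, 3.59, 4.56, 2.59 and 2.98 CPM in MEF2A and 2.95, 1.83, 4.12, 3.80 and 4.74 CPM in Control libraries. Every library with YAP5SA was several times above every one without. Zim1 rose by 3.48 ± 0.32 in YAP5SA (edgeR adjusted p = 3.92e-06) and by 3.68 ± 0.38 in both-virus libraries (adjusted p = 2.46e-05). In the other direction from Peg3, Usp29, which starts 146 bases away on the opposite strand, did not pass (-0.29 ± 0.67, adjusted p = 0.839).

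Cobl, which encodes the actin nucleator cordon-bleu and lies 197924 bases from Grb10, had 159, 86.5 and 139 CPM in YAP5SA, 163 and 190.1 CPM in both-virus, 20.4, 21.7, 25.1 and 22.9 CPM in MEF2A and 6.57, 6.78, 20.4, 12.9 and 11.4 CPM in Control libraries. The libraries with YAP5SA were again apart from all others, and Cobl rose by 3.68 ± 0.27 in YAP5SA (edgeR adjusted p = 2.9e-07) and by 4.32 ± 0.32 in both-virus libraries (adjusted p = 7.14e-07), while Grb10 itself was not called. In MEF2A libraries Cobl stood at 1.08 ± 0.24 and did not pass (adjusted p = 0.295). Calls of Zim1 and Cobl in both comparisons held under every alternative run, 30 for YAP5SA and 29 for both-virus libraries, with 2.77 to 4.07 for Zim1 and 3.23 to 4.31 for Cobl in YAP5SA.

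Osbpl5, an oxysterol-binding protein gene, and Cd81, a tetraspanin gene, lie 1110618 and 474595 bases from H19 on chromosome 7. Osbpl5 had 142, 135 and 135 CPM in YAP5SA and 144 and 136 CPM in both-virus libraries, against 53.4 to 58.5 CPM in MEF2A and 48.7 to 61.7 CPM in Control libraries. It rose by 1.32 ± 0.15 in YAP5SA (edgeR adjusted p = 4.62e-05) and by 1.37 ± 0.18 in both-virus libraries (adjusted p = 0.000459). The YAP5SA call of Osbpl5 held in 30 of 30 alternative runs and the both-virus call in 28 of 29. Cd81 had 193, 142 and 225 CPM in YAP5SA and 171 and 169 CPM in both-virus libraries, against 37.2 to 82.0 CPM in MEF2A and 43.3 to 78.6 CPM in Control libraries. It rose by 1.52 ± 0.24 in YAP5SA and 1.38 ± 0.30 in both-virus libraries (adjusted p = 0.000798 and 0.0222), and without Controls 1 and 2 and YAP5SA 3 it stood at 0.57 and 0.59 and was not called. The both-virus call of Cd81 also ended without Control 1 or 2 or either both-virus library. Outside the rule for naming genes, Snrpn rose (1.29 ± 0.36, adjusted p = 0.0319) and Copg2 fell (-0.78 ± 0.21, adjusted p = 0.0249) in YAP5SA; both were picked after their values were seen. Both calls ended without Control 1, YAP5SA 1 or YAP5SA 3, and that of Snrpn also without Control 2, 4 or 5; they held in 18 and 19 of 30 alternatives, and Copg2 was at -0.10 with library totals only. Without Controls 1 and 2 and YAP5SA 3, 3 of the 45 were called as higher and 0 as lower. In both-virus libraries 4 of 45 rose and 0 fell, beside 1.16% of all tested genes called as higher and 0.195% as lower. In MEF2A libraries the test called 0 of 45, with 3 above and 4 below Control at an unadjusted p under 0.05; DESeq2 called 1 and limma-voom 0.

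**Figure D4:**
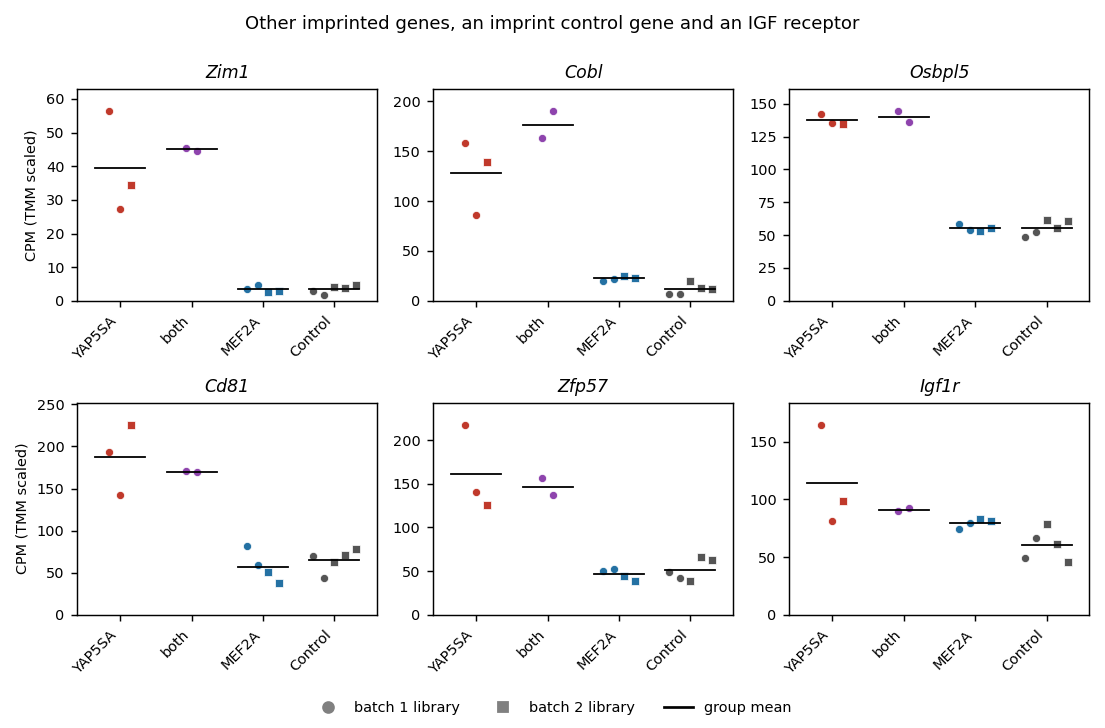
CPM (y axis, TMM scaled, from 0) of Zim1, Cobl, Osbpl5, Cd81, Zfp57 and Igf1r in every library, by group (x axis), with circles for batch 1, squares for batch 2 and a bar for the group mean; "both" is YAP5SA_MEF2A. In the first 5 genes every library with YAP5SA lies above every library without; Igf1r overlaps between groups.

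Of 21 genes of the insulin-like growth factor axis outside the members, 19 were tested, and in YAP5SA against Control 7 rose and 0 fell, with a median log2 fold change of 0.87, beside 0.06 for all genes and 5.69% of all genes called as higher. The count depended on single libraries: 2 were called as higher without YAP5SA 1, 1 without YAP5SA 3, 4 without Control 1 and 2 with the replicate block. Without Controls 1 and 2 there were 6 higher and 1 lower, and without these and YAP5SA 3 there were 0. DESeq2 called 8 as higher and 2 as lower, and limma-voom 7 and 2. Igf1r, the receptor through which IGF2 signals, had 164, 81.1 and 98.6 CPM in YAP5SA, 89.6 and 92.9 CPM in both-virus, 74.0 to 83.5 CPM in MEF2A and 45.4 to 78.7 CPM in Control libraries. It rose by 0.93 ± 0.23 in YAP5SA (edgeR adjusted p = 0.0155), a call that ended without YAP5SA 1 (0.58, adjusted p = 0.126) or Control 1, and without Controls 1 and 2 it stood at 0.85 (adjusted p = 0.0755). Igf2bp1, an RNA-binding protein that binds Igf2 mRNA, had 31.6, 18.6 and 17.0 CPM in YAP5SA and 29.3 and 20.2 CPM in both-virus libraries, against 1.64 to 5.49 CPM in MEF2A and 1.70 to 8.10 CPM in Control libraries. Its difference was 2.25 ± 0.50 in YAP5SA (adjusted p = 0.00954) and 2.36 ± 0.61 in both-virus libraries (adjusted p = 0.0678); without YAP5SA 3 the first call ended (adjusted p = 0.0528), and without Controls 1 and 2 and YAP5SA 3 the value was 0.68 (adjusted p = 0.705).

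The binding protein gene Igfbp2 had 1110, 182 and 1734 counts in YAP5SA and 375 and 317 counts in both-virus libraries, against 0 counts in all 4 MEF2A libraries and 0, 0, 0, 28 and 0 counts in Control libraries. The call in YAP5SA (edgeR adjusted p = 0.00920) ended without YAP5SA 3 (adjusted p = 0.173), and no fold is given because 4 of 5 Controls were at 0. Igfbp3, another binding protein gene, had 21.2, 4.54 and 15.5 CPM in YAP5SA, 2.29 and 3.20 CPM in both-virus, 2.07 to 4.13 CPM in MEF2A and 0.793 to 5.87 CPM in Control libraries, and rose by 2.10 ± 0.54 in YAP5SA (adjusted p = 0.0195), without YAP5SA 1 or 3 no longer called. In both-virus libraries 0 of 19 were called and 4 had an unadjusted p under 0.05, all higher; DESeq2 called 1 and limma-voom 2. In MEF2A libraries 0 of 19 were called, with 1 lower at an unadjusted p under 0.05 and 0 called by DESeq2 or limma-voom.

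Of 15 genes tied to keeping, setting or removing imprints, 13 were tested. In YAP5SA against Control 1 of the 13 rose and 2 fell, beside 5.69% of all tested genes called as higher and 4.17% as lower. The median log2 fold change of the 13 was 0.12, beside 0.06 for all genes. Without Controls 1 and 2 and YAP5SA 3, 0 of the 13 were called. Zfp57, a KRAB zinc finger protein that protects methylation at imprinting control regions, had 217, 141 and 126 CPM in YAP5SA, 156 and 137 CPM in both-virus, 50.2, 52.0, 44.0 and 38.4 CPM in MEF2A and 49.3, 42.3, 38.4, 66.0 and 62.8 CPM in Control libraries. The libraries with YAP5SA were all above the rest, and Zfp57 rose by 1.60 ± 0.22 in YAP5SA (edgeR adjusted p = 0.000272) and by 1.43 ± 0.27 in both-virus libraries (adjusted p = 0.00875). It was also called within each batch in YAP5SA (1.92 in batch 1 and 1.18 in batch 2), and stood at 1.38 without Controls 1 and 2 and YAP5SA 3 (adjusted p = 0.137). The both-virus call ended without Control 1 or without the first both-virus library (1.34 in each, adjusted p = 0.0613 and 0.116), and without Controls 1 and 2 (1.01, adjusted p = 0.167).

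Tet1, which oxidises 5-methylcytosine, had 6.06, 21.4 and 2.01 CPM in YAP5SA, 16.8 and 19.3 CPM in both-virus, 32.5 to 54.2 CPM in MEF2A and 28.2 to 45.8 CPM in Control libraries. It fell by 2.17 on the log2 scale in YAP5SA (edgeR SE 0.49, adjusted p = 0.0143), a call that ended without YAP5SA 1, and without Controls 1 and 2 and YAP5SA 3 it stood at -1.63 (adjusted p = 0.282). Dnmt3a, a de novo DNA methyltransferase, had 76.4, 127 and 78.5 CPM in YAP5SA, 149 and 159 CPM in both-virus, 154 to 219 CPM in MEF2A and 127 to 167 CPM in Control libraries. It fell by 0.67 on the log2 scale in YAP5SA (SE 0.18, adjusted p = 0.0284); that call ended without YAP5SA 1 or 3, Control 2 or either both-virus library, and with library totals only the difference was -0.01. In both-virus libraries Zfp57 was the 1 gene of the 13 called, beside 1.16% of all tested genes called as higher. In MEF2A libraries 0 of 13 were called by edgeR, DESeq2 or limma-voom, with 2 higher and 1 lower at an unadjusted p under 0.05. DNA methylation was not measured here.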

How the data were processed

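Per the labels, polyA RNA of PCM1-enriched heart nuclei was made into non-directional libraries. The deposited values are whole-number read counts per Ensembl gene, not normalized. STAR, limma and edgeR on build GRCm38 are named in the submitters' processing notes. Not given in the sources used here are versions, the counting program, annotation release, strand setting and whether intron reads were counted. Reads of overlapping antisense genes may therefore be mixed; antisense Gm26906 covers 1228 of 18089 exon bases of Meg3 and had 0 counts.

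Symbols, coordinates and exon lengths came from GENCODE vM21 by gene ID (54409 of 54446 genes had a symbol). Genes were kept by filterByExpr (minimum count 10, total 15), counts scaled by TMM, and CPM computed on scaled totals; log2 CPM used a prior count of 2. Tests were edgeR 4.0.16 quasi-likelihood F-tests in R 4.3.3 (limma 3.58.1 for limma-voom, DESeq2 1.42.0) with group and batch over all 14 libraries, two-sided, with p-values adjusted over 17987 genes. The biological coefficient of variation was 0.503. No 2 columns were identical (0 pairs), and replicate libraries differed beyond sampling noise (chi-square per degree of freedom of at least 14.1).

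Members, lists and alternatives were chosen with earlier results of these data known. All members are named. From each of 3 lists (other imprinted genes, IGF axis, imprint control) the called genes with the smallest p in each comparison with Control are named, at most 4, and for members the 3 genes most alike (mean log2 CPM of at least 1). On simulated counts with 200 changed genes, changes of 1 and 2 on the log2 scale were recovered in 19% and 72% for YAP5SA against Control (17217 genes, 1 of 92 calls false), 4% and 59% for both viruses (17111 genes, 2 of 65 false) and 28% and 76% for MEF2A (17166 genes, 4 of 108 false). The simulation held no batch effect. The data gave 1773, 244 and 3 calls in the same order, so these shares are not the recovery rates of the real comparisons.

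Every fit was repeated with RLE, upper-quartile or unscaled totals, with other filters, without mitochondrially encoded genes, with DESeq2 and limma-voom, without batch or with replicate numbers instead of it, on fewer groups, by batch, and without each library or the libraries high in mitochondrial RNA. A term for sex was chosen after seeing the data.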

Additional observations from a re-analysis of the deposited data

Results flagged for a closer look

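Of 20 sets of one member in one group of 4 or 5 libraries that were screened for a library far from the rest, 1 stood out: Peg3 in Control 3, at 729 CPM, with the other 4 Controls at 350.1 to 381 CPM. Chance flags about 1 in 20 such sets. The cause was not tested.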

How the results depend on the processing

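The number of members called in YAP5SA against Control was 5, all as higher. In batch 2 alone, with 1 YAP5SA library, Grb10 stood at -1.03 and all 5 genes that rose stayed above 0. The number called was 2 with only the groups compared, and 2 without Controls 1 and 2, Mirg as higher and Grb10 as lower. It was 1 without Controls 1 and 2 and YAP5SA 3, and 4 to 7 when each library was left out in turn. In both-virus against Control (2 called) it was 4 in batch 1 alone, 0 without Controls 1 and 2, 1 without these and YAP5SA 3, and 1 to 2 with each library left out. In MEF2A against Control (0 called) it was 1, H19, without a low-count filter and in batch 1 alone, and 0 to 1 with each library left out. YAP5SA against MEF2A (5 called) gave 2 in batch 2 alone and 3 to 5 with each library left out. Both-virus against MEF2A (2 called) gave 4 without a filter and with DESeq2, 1 without Controls 1 and 2, and 1 to 3 with each library left out. Both-virus against YAP5SA and the interaction gave 0 in every alternative run. The cause of these moves was not tested.

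The replicate numbers of the labels share only a number: 0 of 16 same-numbered pairs had a correlation of their deviations over 0.1 (-0.184 to 0.0894). With the replicate block in place of batch, members called were 5 in YAP5SA against Control, 1 (Plagl1) in both-virus against Control and 1 in both-virus against MEF2A.

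Over all members, comparisons and alternatives, 1846 values kept both their sign and their side of the threshold, 47 lost a call, 26 gained one, 122 uncalled values changed sign and 0 called values reversed. Library totals moved the median of all genes to 0.69 in YAP5SA, 0.84 in both-virus and 0.21 in MEF2A against Control, and the split of all calls in YAP5SA to 1703 higher and 33 lower, against 1023 and 750 with TMM. Over all genes, 1773 were called in YAP5SA against Control, and 2951 with DESeq2, 938 with the replicate block, 702 with only the groups compared and 75 without Controls 1 and 2 and YAP5SA 3. In both-virus against Control 244 were called, and 814 with DESeq2, 1091 with only the groups compared, 1395 in batch 1 alone and 43 without Controls 1 and 2 and YAP5SA 3. In MEF2A against Control 3 were called, and 84 by DESeq2, 358 without a filter and 482 in batch 1 alone. In YAP5SA against MEF2A (2679) the count was 667 in batch 1 alone, and in both-virus against MEF2A (417) it was 1058 with DESeq2 and 207 with the replicate block. With a sex term, 1 member call ended. Comparisons with both viruses have no value in batch 2, which held none of those libraries, and the interaction none on fewer groups.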
